A study of Homo sapiens with 16 samples.

Results

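The mir1271-5p pulldown was set against the pulldowns of 5 other microRNAs (miRNAs) in HEK 293 cells, a transformed line from human embryonic kidney. It comprised the 2 libraries titled mir1271-5p, of 16 libraries in the series. They were compared with 10 libraries, 2 each for mir1180-3p, mir1260a-5p, mir1301-3p, mir3613-5p and mir550-3p, and the reference was the mean of the 5 group means. The 4 mir124-3p libraries were not used. All 12 libraries came from HEK 293 cells by label, were made by RISC trap immunoprecipitation from polyA RNA, and differed by label only in the miRNA named; the labels give no dose, time or way of delivery. No library without a miRNA is labelled, so a value higher than the reference means higher than in pulldowns of other miRNAs, not higher than in input RNA. The count columns of both mir550-3p libraries and of mir1301-3p replicate 2 carry "bio" in their names, which may stand for biological replicates. The columns of mir1271-5p and the other miRNAs carry no such mark. No label states outright that the 2 libraries of a miRNA came from separate cultures. The p-values therefore measure a spread between libraries that may be technical.

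A miRNA guides Argonaute to mRNAs mainly through its seed, the bases near its 5′ end, which pair with sites that lie mostly in 3′ untranslated regions. GW182 proteins, encoded by TNRC6A and its relatives, bind Argonaute and recruit the enzymes that silence and degrade the target. In the RISC trap a dominant-negative GW182 fragment holds targets on the complex, so that the mRNAs of a miRNA's targets are recovered at raised levels when RISC is precipitated. miR-1271-5p belongs to a seed family with miR-96-5p, a miRNA of sensory cells whose seed changes are known as a cause of inherited hearing loss.

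The mature sequences below show what sets this pulldown apart from its reference, with bases 2 to 8, the seed, in capitals; they came from RefSeq (GRCh38.p14), and mir1260a-5p and mir550-3p were matched to hsa-miR-1260a and hsa-miR-550a-3p.
hsa-miR-1271-5p: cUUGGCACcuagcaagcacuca
hsa-miR-96-5p: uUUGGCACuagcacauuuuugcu
hsa-miR-182-5p: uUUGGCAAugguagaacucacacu
hsa-miR-1180-3p: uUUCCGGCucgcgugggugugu
hsa-miR-1260a: aUCCCACCucugccacca
hsa-miR-1301-3p: uUGCAGCUgccugggagugacuuc
hsa-miR-3613-5p: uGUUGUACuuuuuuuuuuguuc
hsa-miR-550a-3p: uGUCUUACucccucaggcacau
The mature miR-1271-5p lies at chr5:176367960-176367981 on the plus strand, within the span of ARL10. Its seed UUGGCAC was held by 2 of 2370 mature names in the RefSeq table, miR-1271-5p and miR-96-5p, which lies at chr7:129774739-129774761 on the minus strand. Outside the seed those sequences differed, with the same base at 9 positions of the whole miRNA counted from the 5′ end. miR-182-5p, from the same cluster as miR-96-5p, had the same base at 6 of the 7 seed positions. The 5 miRNAs of the reference shared between 1 and 4 seed positions with miR-1271-5p, so none had its seed. The 7-base site that pairs with the seed is GUGCCAA; transcripts were not searched for it here.

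Of 17658 genes tested, 107 (0.606%) were higher in the mir1271-5p pulldown at an adjusted p under 0.05 in edgeR's quasi-likelihood test, and 0 (0%) were lower. At an unadjusted p under 0.05 there were 1116 higher and 534 lower genes, and DESeq2 called 160 higher and 6 lower. The log2 fold changes of the 107 genes lay between 1.11 and 5.76, with a median of 1.60, against a median of 0.05 over all genes tested. In 90 of the 107, both mir1271-5p libraries lay above all 10 others; 380 (2.15%) of all genes tested did so, 290 of them without a call. For 61 of the 107 the mir1271-5p mean was at least 2 times that of the next highest miRNA, a number that was not counted over all genes tested. The mean is over both libraries, and in some of the 61 replicate 2 alone carried it, as in PTPRZ1 (6.69 and 274 CPM). Over all 107, the next highest miRNA was mir3613-5p for 43 genes and mir550-3p for 30. That tally was not made over all genes tested, so it shows no likeness particular to the called genes. In 3 called genes neither mir1271-5p library lay above all others: ZNF101 (118 and 71.3 CPM in mir1271-5p) was highest in mir1180-3p replicate 1 at 143 CPM, C1orf174 (139 and 122 CPM) there at 141 CPM, and NUDT16L1 (216 and 213 CPM) in mir3613-5p replicate 1 at 283 CPM. Their log2 fold changes were 1.76, 1.14 and 1.63; the call of ZNF101 ended without mir1271-5p replicate 1 (1.35), that of NUDT16L1 without replicate 2 (1.64), and that of C1orf174 without any of 9 single libraries, which were all but those of mir1260a-5p and mir1301-3p replicate 2 (1.04 to 1.24).

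Total counts were 17972321 and 8004955 in the mir1271-5p libraries, and between 7612758 and 16089463 in the others. Levels are given as CPM, counts per 1000000 counts of a library after scaling over the 12 libraries; CPM are not divided by length, so levels were compared between libraries and not between genes. A count of 0 allows up to 0.167 and 0.375 CPM in the mir1271-5p libraries, and 0.186 to 0.394 CPM in the others, for counting error only. These limits use total counts before scaling, so they compare only roughly with the scaled CPM. TNRC6A, whose reads may come from the endogenous gene and the GW182 construct, took 0.760% and 0.665% of counts in the mir1271-5p libraries, and 0.745% to 1.49% in the others. Genes typical of HEK 293 (16 tested) summed to 1459 and 1205 CPM, against 1095 to 1752 CPM in the others, and 0 of them were called in edgeR, in DESeq2 or at an unadjusted p under 0.05.

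The mir1271-5p libraries differed from each other in many genes, which touches every value below. After the average of the 6 groups, which the libraries share, was subtracted from log2 CPM, they had a Pearson correlation of -0.13 across all genes tested, against values between -0.12 and 0.60 for the 2 libraries of each other miRNA; genes are not independent replicates, and subtracting an average that holds both libraries by itself pulls these values below 0. Among 11589 genes with a mean of at least 5 CPM, mir1271-5p replicate 1 correlated best with mir550-3p replicate 2 (0.31). Replicate 2 of mir1271-5p correlated best with mir3613-5p replicate 2 (0.23). Each ranked its own partner, at -0.2, 7th or 8th of the other libraries. The libraries of mir1260a-5p (-0.13) and of mir3613-5p (0.168) did not match each other best either. The highest value of all was 0.555, between mir1260a-5p replicate 2 and mir3613-5p replicate 2. Replicate 1 of mir1260a-5p and of mir3613-5p matched mir1271-5p replicate 1 best (0.169 and 0.242). The files hold no measure that checks the mir1271-5p titles, and a batch shared across miRNAs was not tested. Such a batch, a mislabelled library, one of poor quality and a wide spread between replicates therefore cannot be told apart. Only replicate 1 lay above all 10 others for 2267 genes, and only replicate 2 for 1065. Of 11589 genes with a mean of at least 5 CPM, 223 (1.92%) differed at least 4-fold between the mir1271-5p libraries, against 0.25% to 1.07% for the other miRNAs. A set of 20 genes kept its call under all 23 alternative settings, and these were also the 20 called both without replicate 1 and without replicate 2. Of the remaining calls, 42 held only without replicate 1 and 11 only without replicate 2. The results therefore start with the 20 genes, all of which had both mir1271-5p libraries above the other 10 and within 2-fold of each other. This evenness follows largely from the choice of the 20, since each had to be called with either mir1271-5p library alone. Of all 107 called genes, 90 had both libraries above the other 10, and 87 had them within 2-fold of each other. In this bulk RNA, more cells with a transcript and more of it per cell cannot be told apart.

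**Figure D1:**
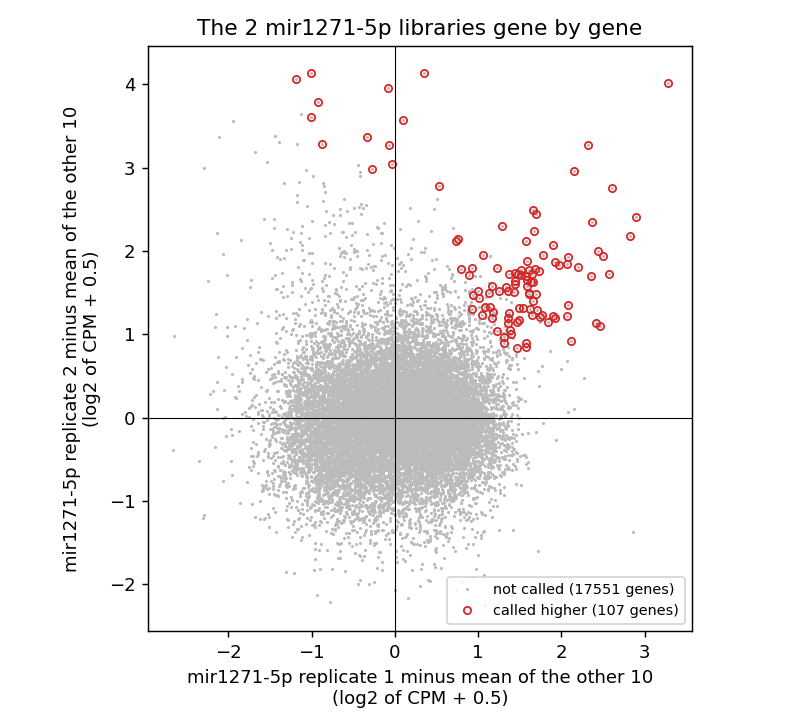
Each point is 1 gene of 17658 tested; the x axis is the log2 of CPM + 0.5 in mir1271-5p replicate 1 minus the mean over the other 10 libraries, and the y axis the same for replicate 2. Open red circles are the 107 called genes; most lie in the upper right, and 13 lie high only on the axis of replicate 2.

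The gene that stood furthest from the other pulldowns among those was BPNT1, a nucleotidase that clears the bisphosphate by-product left when sulfate is transferred. BPNT1 had 213 and 357 CPM in the mir1271-5p libraries, against a lowest of 14.2, a median of 22.8 and a highest of 43.9 CPM in the others. The lower mir1271-5p library was well above the highest other library, mir550-3p replicate 1. The log2 fold change was 3.70 ± 0.26 (SE; adjusted p = 6.91e-07), and the mean was 8.29 times that of mir550-3p, the next group. TPST2 is a Golgi enzyme that sulfates tyrosines of secreted proteins. TPST2 had 87.4 and 147 CPM in the mir1271-5p libraries, against 9.67, 26.6 and 56.3 CPM (lowest, median, highest) in the others, a log2 fold change of 2.13 ± 0.26 (adjusted p = 0.000311). SLC35B2, which carries the activated sulfate donor into the Golgi, had 82.9 and 93.1 CPM against 21.2, 25.2 and 57.2 CPM in the others, and rose by 1.52 ± 0.27 (adjusted p = 0.00973). SLC35B2 lost its call without mir1271-5p replicate 2 (log2 fold change 1.44, adjusted p = 0.159). Of 35 tested genes of sulfation and its by-product, these 3 (8.57%, against 0.606% of all genes tested, which also stands beside each list count below) were higher and 0 lower, with a list median of 0.03 against 0.05 for all genes. The summed level was 1399 and 1210 CPM in the mir1271-5p libraries, against 589 to 1046 CPM in the others. That sum includes the 3 called genes, so it is not separate from their calls. CHST10, a carbohydrate sulfotransferase that is not counted among the 3, was also called higher (1.67), and 19 of 23 alternative settings kept that call. The sulfation list, like the other pathway lists, was drawn up with the called genes known, so its count is a description.

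Signalling genes of cyclic AMP were represented by PRKACB, which encodes the beta catalytic subunit of that pathway's kinase, protein kinase A. PRKACB had 624 and 423 CPM in the mir1271-5p libraries, against 55.2, 102 and 277 CPM (lowest, median, highest) in the others. Both mir1180-3p libraries, at 214 and 277 CPM, came closest, and the groups did not overlap. Its log2 fold change was 2.23 ± 0.24 (adjusted p = 0.000135). ADCY6, an adenylyl cyclase that makes cyclic AMP, had 26.4 and 38.8 CPM against 5.22, 8.64 and 16.3 CPM in the others, with a log2 fold change of 1.88 ± 0.35 (adjusted p = 0.0135). Without mir1271-5p replicate 2 the ADCY6 value was 1.58 and no longer passed (adjusted p = 0.218). These were 2 (3.64%) of 55 genes of protein kinase A and cyclic AMP, whose median log2 fold change was 0.19. RAB23, a small GTPase that restrains Hedgehog signalling, had 406 and 458 CPM in the mir1271-5p libraries, against 54.2, 107 and 248 CPM in the others, and rose by 1.84 ± 0.26 (adjusted p = 0.00171). TRIB3, a stress-induced pseudokinase, had 264 and 299 CPM against 18.9, 82.3 and 132 CPM in the others, and rose by 1.97 ± 0.26 (adjusted p = 0.000657).

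USP51, SPIN1, CENPQ and REV1, of the 20, and SUZ12 and ZNHIT1, outside them, act on chromatin, centromeres or DNA. USP51, a deubiquitinase reported to act on histones, had 92.2 and 102 CPM in the mir1271-5p libraries, against 7.49, 14.95 and 25.5 CPM in the others. That was 5.03 times the next group, with a log2 fold change of 2.69 ± 0.28 (adjusted p = 0.000122). USP51 was the only gene called (4.35%) of 23 histone H2A and H2B deubiquitinases. SPIN1, a reader of methylated histone H3, had 893 and 680 CPM against 122, 209 and 290 CPM in the others, and rose by 1.99 ± 0.25 (adjusted p = 0.000517). CENPQ, a subunit of the inner kinetochore, had 638 and 472 CPM against 77.9, 122 and 174 CPM in the others, and rose by 2.21 ± 0.25 (adjusted p = 0.000195). REV1, a polymerase that inserts bases opposite DNA damage in translesion synthesis, had 180 and 197 CPM against 44.1, 61.1 and 78.6 CPM in the others. The mir1271-5p values of REV1 were close to each other and all above the others, and the log2 fold change was 1.64 ± 0.23 (adjusted p = 0.00126). It was the only gene called (3.23%) of 31 translesion genes. SUZ12, a core subunit of the Polycomb repressive complex that methylates histone H3, had 1442 and 868 CPM against 251, 378 and 549 CPM in the others, and rose by 1.60 ± 0.25 (adjusted p = 0.00303). SUZ12 lost its call without mir1271-5p replicate 1 (1.18, adjusted p = 0.0868), and it was the only one called (2.78%) of 36 Polycomb genes. ZNHIT1, a subunit of a complex that deposits a histone variant, had 250 and 445 CPM against 35.6, 75.4 and 146 CPM in the others, and rose by 2.12 ± 0.26 (adjusted p = 0.000431). Without mir1271-5p replicate 2, ZNHIT1 was at 1.66 (adjusted p = 0.0539).

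The called genes with roles in mitochondria, metabolism, the cytoskeleton and secretion are described together here. OXSM, the condensing enzyme of mitochondrial fatty acid synthesis, had 96.2 and 95.4 CPM in the mir1271-5p libraries, against 4.66, 19.8 and 37.2 CPM in the others. Its log2 fold change was 2.30 ± 0.34 (adjusted p = 0.00196). DLAT, the lipoate-bearing subunit of pyruvate dehydrogenase, had 726 and 463 CPM against 94.9, 147 and 218 CPM in the others, and rose by 2.02 ± 0.30 (adjusted p = 0.00196). Without mir1271-5p replicate 1, DLAT was at 1.65 (adjusted p = 0.0544). OXSM and DLAT were 2 (11.1%, against 0.606% of all genes) of 18 genes of mitochondrial fatty acid and lipoate synthesis, whose median was 0.32. IMMT, a protein that shapes the cristae of the inner membrane, had 250 and 281 CPM against 47.3, 81.9 and 122 CPM in the others, and rose by 1.69 ± 0.23 (adjusted p = 0.000786). GGH, a hydrolase that trims glutamate from folates, had 1428 and 795 CPM against 146, 247 and 361 CPM in the others, and rose by 2.20 ± 0.24 (adjusted p = 0.000135). NCKAP1, a subunit of the WAVE complex that drives actin branching, had 4341 and 4409 CPM against 861, 1325 and 1924 CPM in the others. The mir1271-5p values of NCKAP1 were nearly equal and each more than 2 times any other library, with a log2 fold change of 1.74 ± 0.22 (adjusted p = 0.00059). KDELR2, a receptor that returns proteins to the endoplasmic reticulum, had 630 and 572 CPM against 95.6, 173 and 223 CPM in the others, and rose by 1.91 ± 0.22 (adjusted p = 0.000195). STC2, a secreted glycoprotein hormone, had 414 and 382 CPM against 94.4, 131 and 195 CPM in the others, and rose by 1.55 ± 0.23 (adjusted p = 0.00196).

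Less well characterised genes made up the rest of the 20. C11orf68 had 83.1 and 161 CPM in the mir1271-5p libraries, against 9.63, 17.8 and 21.9 CPM in the others, a log2 fold change of 2.88 ± 0.29 (adjusted p = 8.95e-05). VAT1, a vesicle membrane protein, had 165 and 292 CPM against 13.8, 39.2 and 63.1 CPM in the others, and rose by 2.57 ± 0.31 (adjusted p = 0.000295). FAM184A had 146 and 93.2 CPM against 13.2, 19.995 and 37.0 CPM in the others, and rose by 2.54 ± 0.28 (adjusted p = 0.000142). PIH1D2 had 117 and 105 CPM against 11.2, 30.4 and 38.2 CPM in the others, and rose by 2.0 ± 0.27 (adjusted p = 0.000786). SAAL1 had 310 and 267 CPM against 29.9, 74.6 and 150.1 CPM in the others, and rose by 1.92 ± 0.29 (adjusted p = 0.00289). Over all 20, the log2 fold changes lay between 1.55 (STC2) and 3.70 (BPNT1), and 19 had a mir1271-5p mean at least 2 times that of the next group; RAB23 was at 1.99 times.

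**Figure D2:**
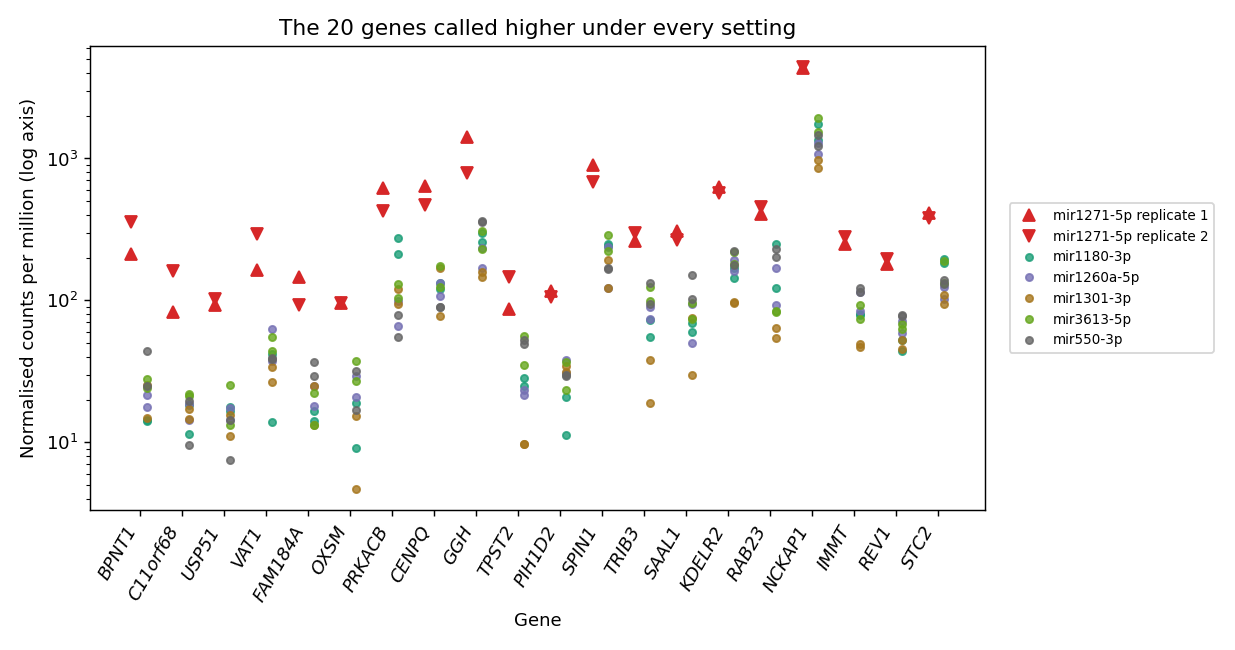
Levels in CPM (log axis) of the 20 genes called under every setting; red triangles are the 2 mir1271-5p libraries, left of each gene, and dots are the 10 libraries of the other 5 miRNAs, coloured by miRNA. In every gene shown both red triangles lie above all dots; the closest approach is by PRKACB, with 624 and 423 CPM in mir1271-5p against a highest of 277 CPM.

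Further named genes rose with less even support. TCEAL7, of a family related to transcription elongation factors, had 22.9 and 16.3 CPM in the mir1271-5p libraries, against 0.771, 2.42 and 9.59 CPM in the others, a log2 fold change of 2.73 ± 0.48 (adjusted p = 0.00956). It did not pass without replicate 1 (2.46) or without replicate 2 (2.96) of mir1271-5p (adjusted p = 0.102 and 0.067). TCEA2, an elongation factor, had 114 and 139 CPM against 24.2, 30.5 and 84.8 CPM in the others, and rose by 1.56 ± 0.32 (adjusted p = 0.0273). EFNB2, a membrane-bound ephrin ligand, had 197 and 227 CPM against 46.4, 70.2 and 91.9 CPM in the others, and rose by 1.61 ± 0.24 (adjusted p = 0.00196); without mir1271-5p replicate 2 it was at 1.52 (adjusted p = 0.0584). CAMK2N1, an inhibitor of a calcium-dependent kinase, had 988 and 1009 CPM against 345, 427 and 725 CPM in the others, and rose by 1.17 ± 0.23 (adjusted p = 0.0208). RFC3, a subunit of the clamp loader of DNA replication, had 921 and 737 CPM against 265, 305 and 482 CPM in the others, and rose by 1.29 ± 0.26 (adjusted p = 0.0281). CSNK1D, a casein kinase of the circadian clock, had 234 and 265 CPM against 62.6, 102 and 182 CPM in the others, and rose by 1.22 ± 0.27 (adjusted p = 0.0412). In all these genes both mir1271-5p libraries lay above the other 10. Leaving out 1 library could end the calls of TCEA2 (either replicate of mir1271-5p, mir1180-3p or mir3613-5p, or mir550-3p replicate 2, with values of 1.41 to 1.70), CAMK2N1 (either replicate of mir1271-5p, mir1180-3p or mir550-3p, 1.15 to 1.21) and RFC3 (either replicate of mir1271-5p or mir550-3p, or replicate 2 of mir1180-3p or mir3613-5p, 1.12 to 1.45). The call of CSNK1D also ended without either replicate of mir1271-5p, mir1180-3p or mir550-3p, or without replicate 1 of mir3613-5p, mir1301-3p or mir1260a-5p, with values of 1.13 to 1.31. All of TCEA2, CAMK2N1, RFC3 and CSNK1D also lost their calls with mir1180-3p missing from the reference (1.44, 1.18, 1.33 and 1.16).

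A list of 38 genes reported as targets of miR-96 or miR-1271, written from memory of other studies, asked how far known targets of the seed family were recovered. REV1 and ADCY6 were higher (2 of 38, or 5.26%, against 0.606% of all genes) and 0 were lower. This list too was chosen with earlier results of these data known, so its counts are a description. In it 26 of 38 (68.4%) had a log2 fold change above 0, against 54.0% of all genes. Pathway lists with 0 calls also ranged widely in that share. It was 66.7% for insulin, PI3K, FOXO and mTOR, 67.5% for G1/S, 70.4% for RISC and 87.9% for G2/M. For Wnt and Notch it was 55.3% and 48.6%. GPC3, a heparan sulfate proteoglycan and a reported target of miR-1271, had 21.96 and 18.8 CPM in the mir1271-5p libraries, against 5.57, 8.79 and 12.4 CPM in the others. Both mir1271-5p libraries of GPC3 were above the rest, with a log2 fold change of 1.16 ± 0.34, but it did not pass over all genes (adjusted p = 0.208). CACNB4, a calcium channel subunit, also had both libraries above the rest, with 67.6 and 60.9 CPM against 27.0 to 48.0 CPM (0.69 ± 0.25, adjusted p = 0.406). FOXO1, a transcription factor downstream of insulin signalling, had 65.8 and 84.5 CPM against 28.5 to 85.2 CPM in the others, and its groups overlapped (0.49 ± 0.28, adjusted p = 0.581). The lowest value was that of EFNA3, an ephrin, at -0.84 (adjusted p = 0.531). The list median less the median of all genes was 0.18, and it was 0.26 without either mir1271-5p replicate in turn. For comparison, the same difference for 33 G2/M cell-cycle genes was 0.35, but -0.02 without replicate 1 and 0.62 without replicate 2, and that for the 31 translesion genes was 0.29, 0.00 and 0.68. The list of insulin, PI3K, FOXO and mTOR genes moved no more than the reported targets, with 0.15, 0.15 and 0.19, and that of RISC genes stood at 0.12, 0.10 and 0.21.

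The other lists held few or no called genes. There were 0 called of 39 genes of insulin, PI3K, FOXO and mTOR signalling, 0 of 40 G1/S genes, 0 of 33 G2/M genes, 0 of 27 RISC genes, 0 of 35 Notch genes and 0 of 38 Wnt genes in edgeR. At an unadjusted p under 0.05, higher and lower genes numbered 1 and 1 for insulin signalling, 4 and 1 for G1/S, 8 and 0 for G2/M, 4 and 0 for RISC, 2 and 2 for Notch, and 3 and 2 for Wnt. Over all 17658 genes tested these numbers were 1116 and 534. DESeq2 called 1 higher G1/S gene and 0 of the others, against 160 higher and 6 lower of 18941 genes. The highest G2/M value was that of MKI67, a proliferation marker, with 201 and 599 CPM in the mir1271-5p libraries, against 47.2 to 435 CPM in the others (1.53 ± 0.48, adjusted p = 0.278). Casein kinase 1 and clock genes had 1 called of 28 (CSNK1D, 3.57%), and the TCEAL and BEX family had 2 of 16 (TCEAL7 and TCEA2, 12.5%). The median of the 51 cortical progenitor genes was -0.05, and 1 was called (PTPRZ1, 1.96%). Markers of fibroblasts (16 tested), blood (13), neurons and glia (16) and hepatocytes or keratinocytes (9) had 0 calls in edgeR, with medians of -0.40, -0.73, -0.17 and 0.06. Their summed levels in the mir1271-5p libraries were 88.0 and 84.4 CPM for fibroblasts, against 85.6 to 265 CPM in the others, and 22.4 and 39.1 CPM for blood, against 19.7 to 53.7 CPM. For neurons and glia they were 168 and 106 CPM against 107 to 155 CPM, and for hepatocytes or keratinocytes 178 and 188 CPM against 149 to 216 CPM. At an unadjusted p under 0.05 there were 0, 1, 1 and 0 higher and 2, 1, 0 and 0 lower markers in that order, and DESeq2 called 1 lower, COL1A2. No marker was at 0 in all 12 libraries.

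**Figure D3:**
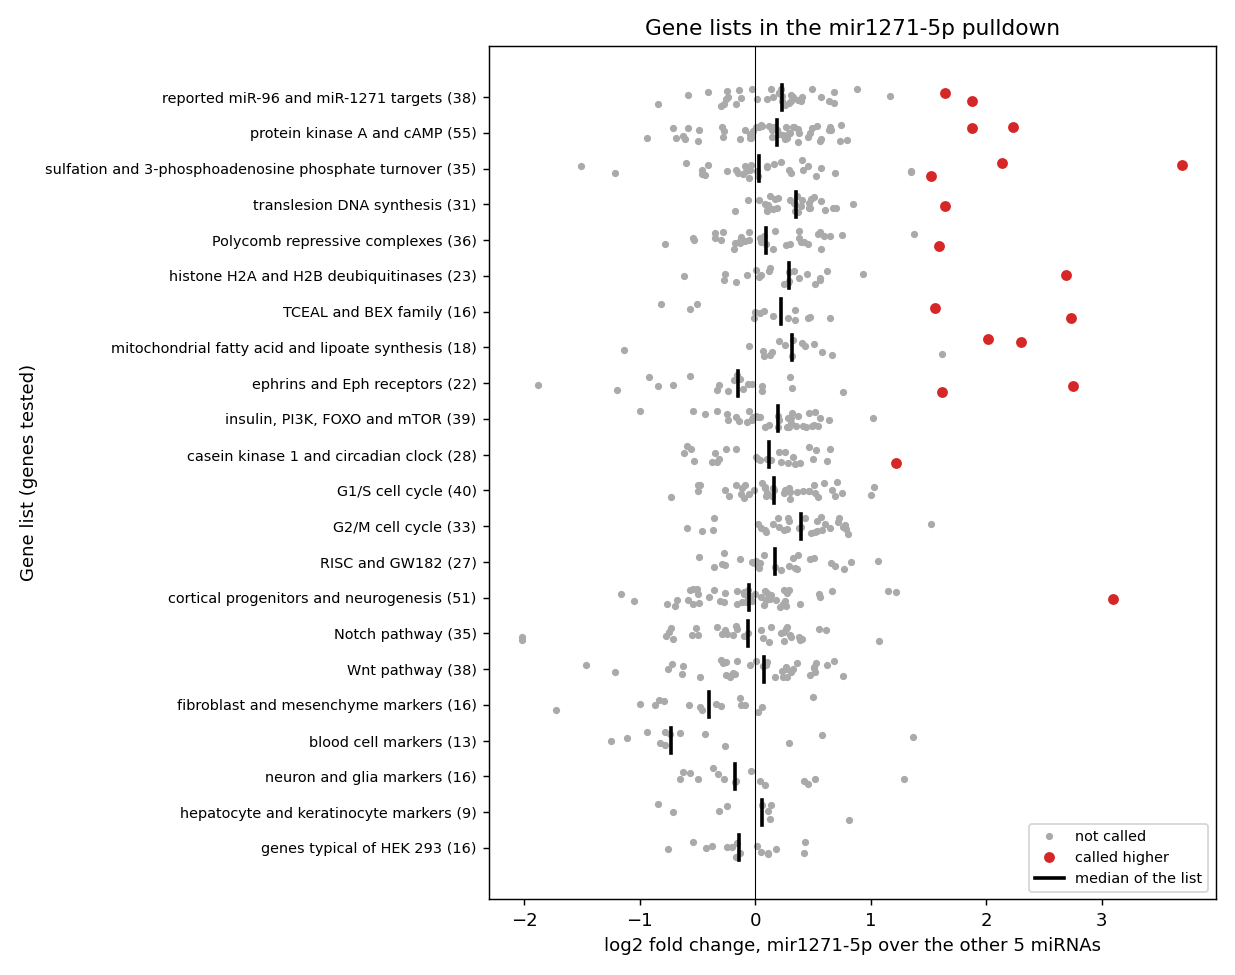
The log2 fold change of mir1271-5p over the other 5 miRNAs (x axis) for each tested gene of the 22 lists (rows, with the number tested); red points are called higher, grey points not called, and black bars are list medians. The highest point is BPNT1 at 3.70 in the sulfation list, and no list holds a gene called lower.

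Another 14 called genes had only 1 mir1271-5p library above the other 10, and in 13 of them it was replicate 2. PTPRZ1, a receptor phosphatase of glia and neural progenitors, had 6.69 and 274 CPM in replicates 1 and 2 of mir1271-5p, against 4.73, 18.8 and 33.2 CPM (lowest, median, highest) in the others. Replicate 1 was thus below the median of the others while replicate 2 was far above them, as in 8 of the 14 genes. The log2 fold change of PTPRZ1 was 3.10 ± 0.59 (adjusted p = 0.0208), and without replicate 2 it was -1.28. EPHB6, an Eph receptor without kinase activity, had 3.18 and 90.3 CPM against 1.81, 8.67 and 21.1 CPM in the others (2.75 ± 0.56, adjusted p = 0.0315), and was at -1.11 without replicate 2. With EFNB2 it made up 2 (9.09%, against 0.606% of all genes) of 22 ephrins and Eph receptors called. The list's median was -0.15, with 7 of 22 values above 0 and the lowest, that of EPHA2, at -1.88 (adjusted p = 0.399). IPO4, a nuclear import receptor, had 69.9 and 1159 CPM against 20.1, 68.0 and 328 CPM in the others (2.98 ± 0.52, adjusted p = 0.0121), and was at -0.15 without replicate 2. TNFSF8, the ligand of the lymphocyte receptor CD30, had 3.38 and 137 CPM against 1.18, 6.80 and 47.0 CPM (3.20 ± 0.64, adjusted p = 0.03), and was at -1.16 without replicate 2. C9, a complement component made in liver, had 3.18 and 95.9 CPM against 1.46, 8.43 and 14.9 CPM (2.92 ± 0.57, adjusted p = 0.023), and was at -1.03 without replicate 2. CELA2B, a pancreatic elastase, had the largest log2 fold change of all called genes, 5.76 ± 0.81 (adjusted p = 0.00171), from 0.338 and 11.0 CPM against 0 to 0.794 CPM. Without replicate 2 it was at 1.79 (adjusted p = 0.371). The calls of these genes also ended under other settings: of 23 alternatives, 3 kept the call of EPHB6, 5 that of TNFSF8, 7 that of C9, 8 that of PTPRZ1, 11 that of IPO4 and 19 that of CELA2B, which 3 others did not test. In all, 10 of the 107 called genes had a negative value without replicate 2, and 0 had one without replicate 1. The 1 gene with replicate 1 alone above the others was OXGR1, with 43.7 and 17.7 CPM against a highest of 22.4 CPM; its call ended under most other settings (adjusted p up to 0.683).

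**Figure D4:**
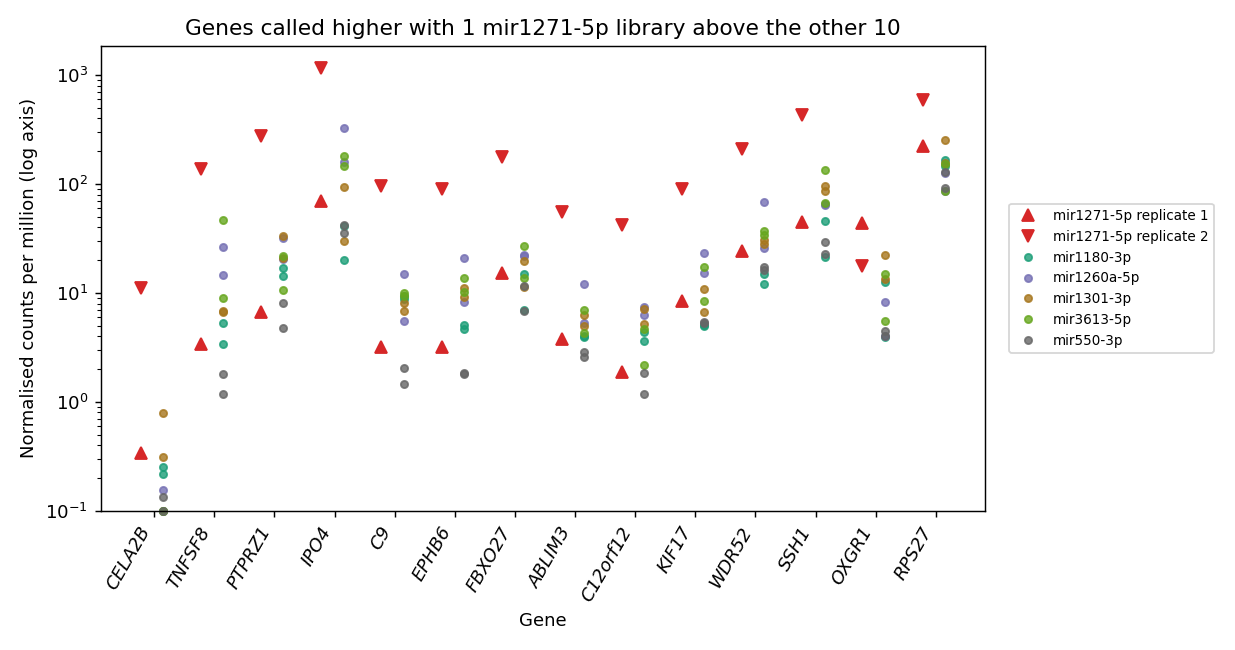
Levels in CPM (log axis; a value of 0 is drawn at the lower edge) of the 14 called genes with a single mir1271-5p library above the other 10; red triangles pointing up are mir1271-5p replicate 1, those pointing down replicate 2, and dots the other 10 libraries. Replicate 2 is the high library in 13 genes, as in PTPRZ1 with 6.69 and 274 CPM.

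Among genes with a mean of at least 5 CPM, the 4 widest differences each way between the mir1271-5p libraries were, apart from that of PTPRZ1, in genes that were not called; TNFSF8, C9 and EPHB6 above differed by similar amounts. Replicate 1 was the higher for GGTLC1 (20.3 and 0.611 CPM), HIST1H1D, a linker histone now named H1-3 (44.2 and 3.30 CPM), SAFB, a nuclear matrix protein (21.6 and 1.71 CPM), and HMGB2, a chromatin protein of dividing cells (602 and 59.9 CPM). For HMGB2, replicate 2 lay below the lowest of the other 10 libraries, at 64.9 CPM, and replicate 1 below the highest, at 747 CPM. Replicate 2 was the higher for TRAF2, an adaptor of TNF receptors (27.7 and 1104 CPM), USP20, a deubiquitinase (5.20 and 255 CPM), and SPHKAP, an anchor of protein kinase A (3.38 and 177 CPM). TRAF2 also varied widely among the other 10, between 25.7 and 496 CPM. Reads of GGTLC1 and HIST1H1D may be shared with near-identical genes, so their levels are uncertain.

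No gene was called lower, and the decrease with the smallest adjusted p was that of IL23R, an interleukin receptor subunit. IL23R had 0.135 and 0.122 CPM in the mir1271-5p libraries, against 0.588, 1.01 and 2.18 CPM (lowest, median, highest) in the others (-2.90 ± 0.70, adjusted p = 0.0843). Both mir1271-5p values were under what a count of 0 allows, and only low counts stood behind the others. Both mir1271-5p libraries lay below all 10 others for 213 genes (1.21%). The 6 genes that DESeq2 called lower were MYO9B, COL1A2, DUSP4, COL6A2, NDEL1 and PTGER4, with adjusted p-values of 0.213 to 0.308 in edgeR. COL6A2, a collagen chain, had 2.10 and 2.81 CPM in the mir1271-5p libraries against 2.84 to 25.6 CPM in the others, and COL1A2, another collagen chain, had 1.08 and 1.59 CPM against 1.26 to 31.4 CPM. For COL1A2 the highest of the others was mir1301-3p replicate 2, and the groups overlapped.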

How the data were processed

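RNA from RISC trap immunoprecipitates of HEK 293 cells was sequenced. The authors deposited raw counts per RefSeq mRNA (19077 entries, 1 column per library) without normalisation; TopHat2 and hg19 are named per the submitters' processing notes. Neither labels nor notes give tool versions, the counter, strandedness or the sequencer of the 12 libraries used. Each column was matched to its library by the labels, and groups are the miRNAs in the titles.

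The 12 libraries were fitted together with edgeR 4.0.16 under R 4.3.3, after filterByExpr and TMM scaling, by robust quasi-likelihood F tests, two-sided, with mir1271-5p minus the mean of the other 5 group means as the contrast. The threshold for a call was 0.05 for the p adjusted by Benjamini-Hochberg over 17658 genes. The biological coefficient of variation was 0.350. The standard error given with a fold change is the size of the log2 fold change divided by the square root of its F statistic. It is approximate, above all for genes with low counts. Log2 CPM used a prior count of 2 for the correlation over all genes tested and for the widest replicate differences. The correlations among 11589 genes, the 4-fold differences between replicates and the correlations of replicate differences used the log2 of CPM + 0.5. DESeq2 1.42.0, other scalings, other filters, a replicate block, each library left out, and each other miRNA left out of the reference were alternatives. The steps were tested on simulated data, where most 2-fold changes were missed and the share of false calls was above the 5% that the threshold allows. The replicate numbers were not taken to pair the libraries. Across 15 pairs of miRNAs, the replicate differences correlated between -0.31 and 0.50, with 6 over 0.1. Whether some libraries shared a batch was not tested.

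Named genes were the 14 largest increases and 6 largest decreases called with a mean of at least 5 CPM and both libraries beyond all 10 others, the 6 smallest adjusted p-values, the 5 highest levels among called genes, up to 2 called per list, and the 4 widest replicate differences each way. Core genes outside that rule, GPC3, CACNB4, FOXO1, EFNA3, EPHA2, MKI67, OXGR1, IL23R, SLC35B2, CHST10, single-library genes, the 3 genes below another library and those from DESeq2 were named after their values were seen. The miRNAs compared and all lists were chosen with earlier results of these data known.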

Additional observations from a re-analysis of the deposited data

Results flagged for a closer look

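In 8 of 61 genes examined, 1 of the 10 other libraries stood apart from the rest, with a gap to its nearest neighbour above Dixon's critical share of the range. About 1 of 20 groups of independent draws from a normal distribution would show such a gap. These were unlogged CPM of libraries paired by miRNA, and some genes were named after their values were seen. The 8 of 61 therefore cannot be read against that rate. BPNT1 was at 43.9 CPM in mir550-3p replicate 1, against 28.1 CPM in the next library. ADCY6 was at 16.3 CPM in mir3613-5p replicate 2, against 11.0 CPM. SPHKAP was at 66.6 CPM in mir1180-3p replicate 1, against 20.8 CPM. IPO4 was at 328 CPM in mir1260a-5p replicate 1, against 180.2 CPM, and CELA2B at 0.794 CPM in mir1301-3p replicate 2, against 0.312 CPM. COL1A2 was at 31.4 CPM in mir1301-3p replicate 2, against 11.6 CPM, and COL6A2 at 25.6 CPM in mir1180-3p replicate 1, against 13.6 CPM. EPHA2 was at 18.3 CPM in mir1180-3p replicate 2, against 6.76 CPM. For BPNT1, ADCY6, SPHKAP, IPO4 and CELA2B, at least 1 mir1271-5p library lay above the library that stood apart.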

How the results depend on the processing

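The count of 107 higher genes was 50 with upper-quartile scaling, which shifted the median of all genes by -0.24, and 68 with mir3613-5p or mir550-3p missing from the reference; all 50 were among the 107. Leaving out 1 library gave between 35 (without mir1271-5p replicate 2) and 174 (without mir1271-5p replicate 1), of which 31 and 62 were among the 107; without mir1180-3p replicates 1 and 2 it gave 71 and 70, without mir3613-5p replicate 2 it gave 69, and without mir550-3p replicates 1 and 2 it gave 70 and 64. DESeq2 called 160, of which 100 were among the 107, and 6 lower; 0 were lower under every other setting. With the replicate numbers as a block, which are not known to pair the libraries, 94 were higher, 90 of them among the 107. The other filters and size factors kept the count within 1.5 times. Without mir1271-5p replicate 2, PTPRZ1 (-1.28), EPHB6 (-1.11), TNFSF8 (-1.16), C9 (-1.03) and IPO4 (-0.15) turned negative, while without replicate 1 they were at 4.07, 3.71, 4.18, 3.88 and 3.89. With upper-quartile scaling ADCY6 was at 1.67, TCEA2 at 1.34, CAMK2N1 at 0.95, RFC3 at 1.05 and CSNK1D at 0.996, none of them called. SLC35B2 was at 1.41 (adjusted p = 0.0515) with mir550-3p missing from the reference. With upper-quartile scaling the median of the reported targets was -0.00, still 0.18 above that of all genes. Causes were not tested. Each miRNA had 2 libraries, and whether the total counts of the mir1271-5p libraries bear on the calls was not tested; the library of lower total, replicate 2, gave the more calls alone.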
